A study of Mus musculus with 2 samples.

Results

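The loci of the effector cytokines, with the genes Il4, Il13, Rad50, Il5, Ifng, Il22, Il17a, Il17f and Il2, held 36 of the 51660 CTCF-bound regions mapped on the autosomes and the X of mouse thymocytes (0.0697%). Il4, Il13 and Il5 encode the cytokines of type 2 helper T cells. Rad50 lies among them and encodes a DNA repair protein, not a cytokine. Ifng encodes interferon gamma, the cytokine of type 1 helper T cells, Il22 a cytokine that acts on epithelia, Il17a and Il17f the cytokines of Th17 cells, and Il2 a growth factor of T cells. The regions were chosen by position only. A region was included if its midpoint lay in one of 4 windows of the mm9 build, on chromosome 11 from 53.35 to 53.65 Mb (Il4, Il13, Rad50, Il5), chromosome 10 from 117.55 to 118 Mb (Il22, Ifng), chromosome 1 from 20.65 to 20.85 Mb (Il17a, Il17f) or chromosome 3 from 36.95 to 37.1 Mb (Il2). The windows add up to 1100 kb.

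The map came from 1 library of chromatin precipitated with an anti-CTCF antibody (ChIP-seq). Its cells were CD4+CD8+ thymocytes, called DP in the labels, from C57BL/6 mice of 4 to 8 weeks that were Rag1 -/- and carried a TCRbeta transgene. Rag1 is a recombinase required to assemble antigen receptor genes, so these thymocytes develop through a receptor chain supplied by the transgene. The labels used here give neither the promoter of the transgene nor the number of mice. An input library was made from cells of the same kind and was not analysed here. No group was compared with another, there was no replicate, and every comparison below is between stretches of the genome within the CTCF library. The file lists positions without heights or read counts, so depth is unknown.

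CTCF, a DNA-binding protein with many zinc fingers, stops cohesin at its sites and so fixes the bases of chromatin loops. Helper T cells switch on Il4, Il13 and Il5, Ifng, or Il17a and Il17f after activation, each lineage its own set, and enhancers far from these genes take part. In the type 2 locus a control region for the cytokine genes lies within Rad50, which itself is used by most cells. Thymocytes of the DP stage are known as a stage before these cytokine genes are used. RNA was not measured in this library, so the silence of the loci in these cells could not be checked, and positions of CTCF give no marker by which the labelled cell type could be checked.

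In the order of protein-coding genes of the RefSeq table (build GRCm38.p6), all 9 genes were found. Kif3a comes before Il4, which is followed by Il13, Rad50, Il5 and then Irf1, an interferon-response transcription factor. Mdm1 comes before Il22, and Iltifb, a copy of Il22 in C57BL/6 mice, lies between Il22 and Ifng, with Dyrk2 after Ifng. Pkhd1 comes before Il17a and Il17f, with Mcm3, a replication helicase subunit, after them. Adad1 comes before Il2 and Il21, another T cell cytokine, after it. No mm9 gene positions were used. A region is therefore placed in a window and not in a gene, exon, intron or promoter, and some regions of a window may lie at neighbouring genes such as Kif3a, Irf1 or Mcm3.

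The bases of the regions themselves could not be read without an mm9 genome. The promoters of the cytokine genes were searched in their place for a core of the CTCF motif (CCA, any 2 bases, AG, any 2 bases, GGC) on both strands of the 250 bases before each gene's start (RefSeq, GRCm38.p6). Of the 9 genes, 8 were matched, all but Rad50, and Il4 had 2 stretches for 2 starts. The motif was in 0 of these 9 stretches and in 2.07% of the 32851 stretches of all genes. The best-matching 12 bases held 6 of the 8 fixed letters in 6 of the 9 stretches and 5 of the 8 in the other 3. Over all genes, a best match of 7 letters occurred in 23.6% of stretches, one of 6 letters in 61.9% and one of 5 letters in 12.4%. None of the 9 stretches had a best match of 7 letters. One promoter per window is shown, to let the searched letters be read, with the first best match in capitals, and for Il4 the one before its more upstream start. It is on the printed strand for Il4 and Ifng and on the other strand for Il17a and Il2. Positions are in GRCm38.p6 and cannot be set against those of the CTCF regions, which are in mm9.
Il4 (chr11:53618666-53618915, minus strand): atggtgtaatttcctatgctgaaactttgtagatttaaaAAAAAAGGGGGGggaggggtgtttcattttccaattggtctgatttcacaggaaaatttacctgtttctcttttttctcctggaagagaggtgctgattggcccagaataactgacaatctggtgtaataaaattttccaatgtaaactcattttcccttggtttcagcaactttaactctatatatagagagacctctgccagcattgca
Ifng (chr10:118440796-118441045, plus strand): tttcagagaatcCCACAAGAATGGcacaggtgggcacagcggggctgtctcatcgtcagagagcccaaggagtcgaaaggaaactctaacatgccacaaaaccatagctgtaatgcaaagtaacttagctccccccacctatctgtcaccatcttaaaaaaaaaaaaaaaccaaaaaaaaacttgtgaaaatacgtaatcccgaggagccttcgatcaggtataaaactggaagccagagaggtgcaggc
Il17a (chr1:20730655-20730904, plus strand): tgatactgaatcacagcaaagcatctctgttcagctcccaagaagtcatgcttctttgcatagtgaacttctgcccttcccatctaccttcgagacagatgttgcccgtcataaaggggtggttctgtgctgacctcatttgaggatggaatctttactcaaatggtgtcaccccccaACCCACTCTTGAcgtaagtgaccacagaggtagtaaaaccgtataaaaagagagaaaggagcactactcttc
Il2 (chr3:37125955-37126204, minus strand): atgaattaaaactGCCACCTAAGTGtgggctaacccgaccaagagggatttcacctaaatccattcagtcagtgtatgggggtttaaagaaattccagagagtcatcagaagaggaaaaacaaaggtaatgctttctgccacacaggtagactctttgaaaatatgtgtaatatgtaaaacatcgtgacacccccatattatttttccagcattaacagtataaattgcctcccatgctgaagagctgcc
These stretches say nothing of CTCF further from the gene starts.

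The 4 windows differed widely in their number of CTCF regions. The Il4-Il13-Rad50-Il5 window had 20 regions in 300 kb, which is 66.7 per Mb (exact 95% Poisson interval 40.7 to 103). The Il22-Ifng window had 11 regions in 450 kb, or 24.4 per Mb (12.2 to 43.7). The Il17a-Il17f window had 3 regions in 200 kb, or 15.0 per Mb (3.09 to 43.8), and the Il2 window had 2 regions in 150 kb, or 13.3 per Mb (1.61 to 48.2). These intervals cover counting error only. The interval of the Il4-Il13-Rad50-Il5 window, called the type 2 window below, overlapped that of each other window. Covered bases gave the type 2 window first as well, with 3.16% of its length in regions, against 1.05% in Il22-Ifng, 0.517% in Il2 and 0.2125% in Il17a-Il17f. All members together had 32.7 regions per Mb (22.9 to 45.3), against 35.5 per Mb (29.9 to 41.8) in their flanks of 500 kb on each side and 19.6 per Mb in the genome. The value of the members thus lay above that of the genome and inside the interval of the flanks. Without the type 2 window, a split made after the values were seen, the other 3 windows had 20.0 per Mb (11.4 to 32.5), an interval that contains the value of the genome and does not overlap that of the type 2 window.

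**Figure D1:**
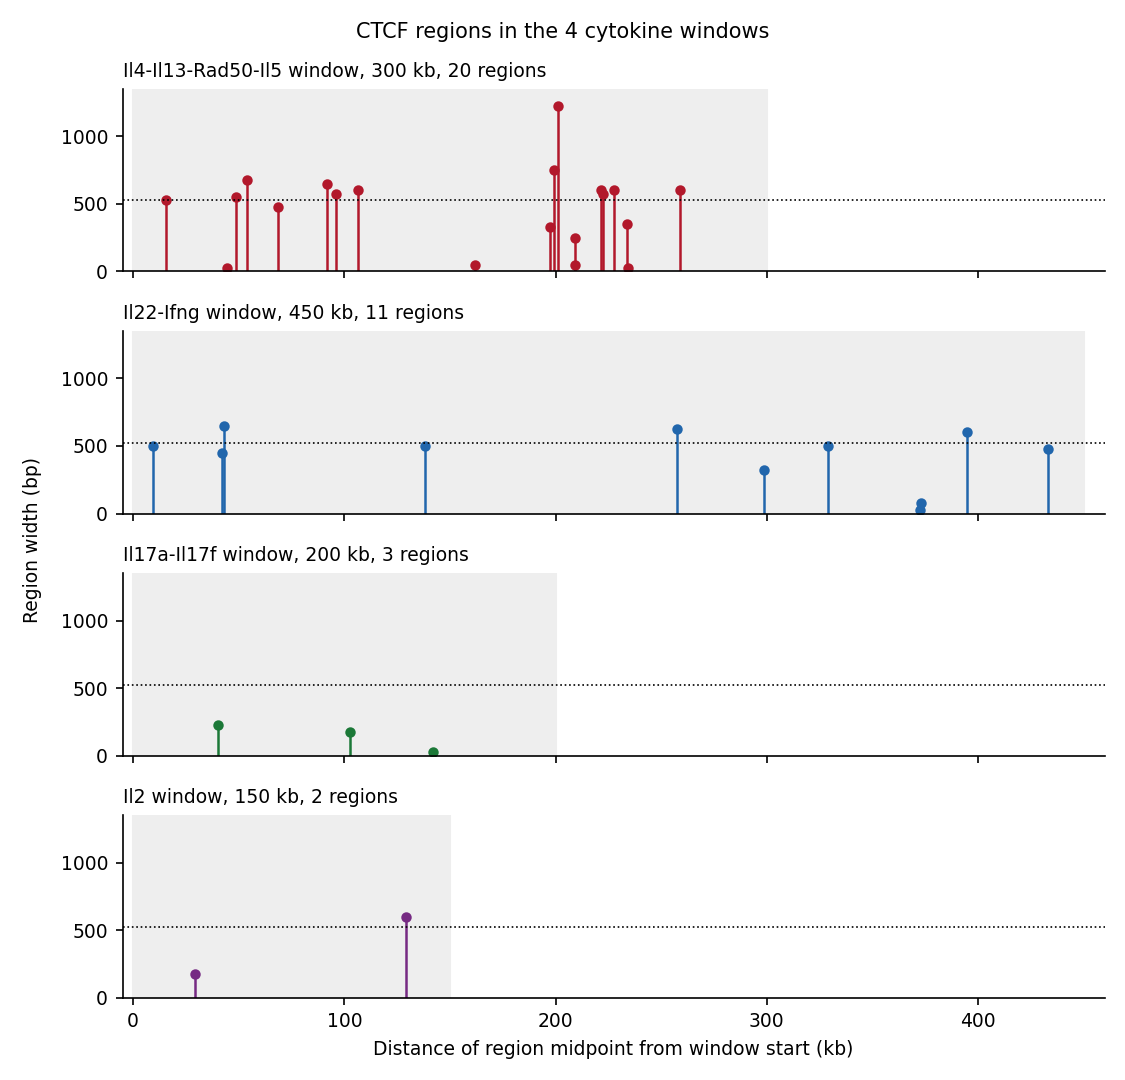
Position (x axis, kb from the start of the window) and width (y axis, bp) of every CTCF region in the 4 cytokine windows; each stem is 1 region, grey marks the window and the dotted line the median width of all regions, 525 bp. The 20 regions of the Il4-Il13-Rad50-Il5 window stand mostly on either side of its middle, and no region of the Il17a-Il17f window reaches the line.

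Within the type 2 window the regions lay in 2 groups around a nearly empty middle, when neighbours up to 30 kb apart were put in 1 group, a distance chosen after the positions were seen. The longest distance inside a group was 28.45 kb. The first group, 8 regions from 53365246 to 53456720, spanned 91.5 kb. After it came 55.3 kb with no region (53456721 to 53511995), the longest such stretch of the window. Of the distances between neighbours on chromosome 11, 9.97% were longer. Such a share ranks the longest of a window's several distances against single distances, so it cannot show that a stretch is unusually long. The stretch was followed by a single region of 50 bp at 53511996 to 53512045. The second group, 11 regions from 53547321 to 53609195, spanned 61.9 kb. All 6 parts of 50 kb contained a region, with 3, 4, 1, 3, 8 and 1 from low to high coordinates. Of all 50-kb tiles of chromosome 11, 55.0% held a region and 2.13% held 8 or more. The second share ranks the fullest of the 6 parts against single tiles, so it cannot show that the part is unusually full. The 50-bp region is the only one between the groups, and without regions of at most 75 bp the stretch between them was 90.6 kb.

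The first group of the type 2 window was made mainly of well-separated regions close to the median width of the library, 525 bp. Its widths were 525 bp (53365246-53365770), 25 bp (53394221-53394245), 550 bp (53398221-53398770) and 675 bp (53403596-53404270) in its lower part. They were 475 bp (53418396-53418870), 650 bp (53441246-53441895), 575 bp (53445721-53446295) and 600 bp (53456121-53456720) in its upper part. Of the 8 regions, 7 were thus between 475 and 675 bp, bounds set by these 7 themselves. Of all regions of the library, 42.8% were narrower than 475 bp and 7.87% wider than 675 bp. The shortest distance between neighbours in the group was 3825 bp. The region of 675 bp was wider than 87.9% of all regions of the library.

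The second group held the widest region of the 4 windows and was more tightly packed. Its first 3 regions, of 325 bp (53547321-53547645), 750 bp (53548896-53549645) and 1225 bp (53550346-53551570), lay within 4.25 kb and covered 2300 bp. The region of 1225 bp was the only member over 1000 bp, a width passed by 1.04% of all regions. Wider regions numbered 171 in the library (0.331%) and 17 on chromosome 11, where the widest was 1650 bp. Next came 2 regions 25 bp apart, of 250 bp (53558846-53559095) and 50 bp (53559121-53559170). A further pair stood 100 bp apart, of 600 bp (53571371-53571970) and 575 bp (53572071-53572645), and both were wider than the genome-wide median. The others were of 600 bp (53577196-53577795), 350 bp (53583721-53584070), 25 bp (53584146-53584170, at a distance of 75 bp) and 600 bp (53608596-53609195). Whether such close neighbours are separate sites was not tested. Joined at most 1000 bp apart, the window held 16 regions.

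In the Il22-Ifng window, 8 of 11 regions were between 450 and 650 bp wide, bounds set by these 8 themselves, and most distances were long. Of all regions of the library, 41.1% were narrower than 450 bp and 12.1% wider than 650 bp. At the low end of the window the regions were of 500 bp (117558928-117559427), 450 bp (117592003-117592452) and 650 bp (117592778-117593427), the last 2 at a distance of 325 bp. A single region, of 500 bp (117687853-117688352), was listed in the next 213.9 kb. The stretches on its sides without a region were 94.4 and 119 kb long, and 7.67% of the distances between neighbours on chromosome 10 were longer than 119 kb. That share again ranks the longest distance of the window against single distances. The gene order puts Iltifb between Il22 and Ifng. How the authors placed reads that match more than 1 copy is not given in the sources used here, and its part in these stretches was not tested. From 117807353 on, the spacing was shorter. The regions there were of 625 bp (117807353-117807977), 325 bp (117848428-117848752), 500 bp (117878853-117879352), 25 bp (117922678-117922702), 75 bp (117922928-117923002), 600 bp (117944578-117945177) and 475 bp (117983028-117983502). Distances between them were 21.6 to 43.3 kb, apart from the 225 bp between the 2 short ones. Of the 9 parts of 50 kb, 6 held a region, against 41.1% of such tiles on chromosome 10.

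The Il17a-Il17f window had no region as wide as the median of the library. Its 3 regions were of 225 bp (20690171-20690395), 175 bp (20752446-20752620) and 25 bp (20791946-20791970). The longest distance between them was 62.05 kb, and 17.4% of distances on chromosome 1 were longer. Of all regions, 73.9%, 76.7% and 93.2% were wider than these. The nearest regions outside were both wider than the median, 700 bp (20602621-20603320) on the low side and 550 bp (20880896-20881445) on the high side. The stretch of 277.6 kb between these 2 outer regions thus held only the 3 narrow ones. A count of 0 regions of at least 525 bp in 200 kb has an exact 95% Poisson interval of 0 to 18.4 per Mb, which contains the 10.2 per Mb of the genome, so a lower density of such regions was not detectable in a window of this length.

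The Il2 window had a narrow region and one wider than the median, far apart. The first, of 175 bp (36979094-36979268), was followed by 99.55 kb without a region and then by 1 of 600 bp (37078819-37079418). On chromosome 3, 11.4% of distances between neighbours were longer. On the low side the next region, of 25 bp (36792944-36792968), was 186.1 kb away. On the high side the next region, of 650 bp (37102694-37103343), was 23.3 kb away and 3.02 kb past the bound of the window by its midpoint. The count of 2 therefore depends on that bound, and with windows widened by 50 kb on both sides it was 5.

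At the bounds of the type 2 and Il22-Ifng windows, the nearest regions inside and outside had midpoints 2.67 to 41.1 kb away. In the type 2 window the outermost members had midpoints 15.5 kb (525 bp wide) and 41.1 kb (600 bp) inside the bounds, and the nearest regions outside had midpoints 11.4 kb (625 bp) and 2.82 kb (550 bp) beyond them. In Il22-Ifng the outermost members were 9.18 kb (500 bp) and 16.7 kb (475 bp) inside, and the nearest outside were 2.67 kb (650 bp) and 29.8 kb (625 bp) beyond. The regions just outside were wider than the outermost members at 6 of the 8 bounds, the exceptions being the high bound of the type 2 window and the low bound of Il2. No such share was computed for other bounds of the genome, so the count cannot be read as a trait of these windows.

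**Figure D2:**
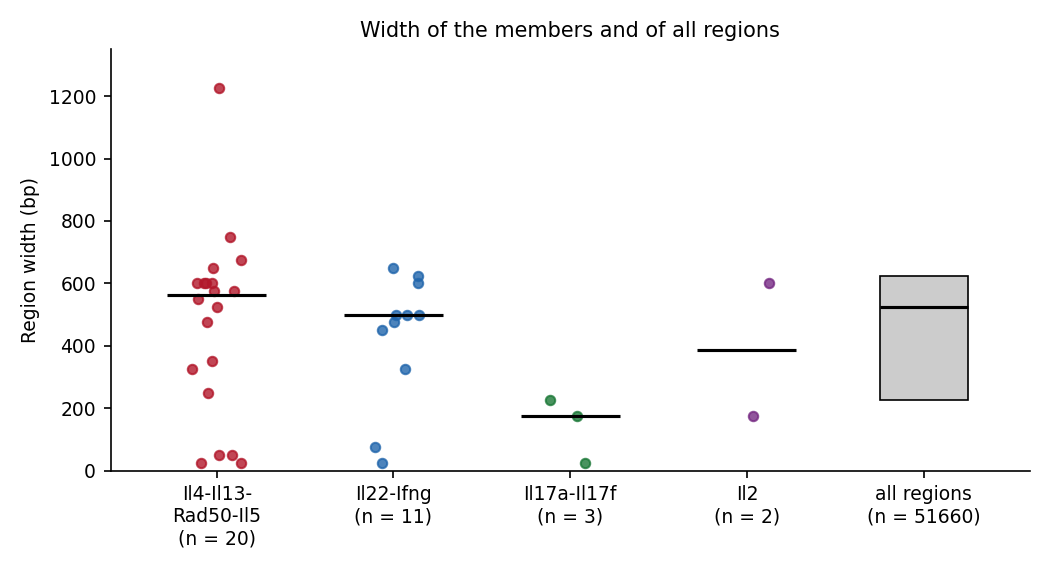
Width (y axis, bp) of each CTCF region in the 4 cytokine windows (points, with the median as a line) and of all 51660 regions (box from the lower to the upper quartile, line at the median). The median was 562.5 bp in the Il4-Il13-Rad50-Il5 window, 500 bp in Il22-Ifng, 175 bp in Il17a-Il17f and 387.5 bp in Il2, against 525 bp over all regions.

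Most of the members of at least median width were in the type 2 window, which held 20 of the 36 members. The median width of the 36 members was 500 bp, against 525 bp over all regions, with quartiles of 212.5 and 600 bp against 225 and 625 bp. Of the members, 16 were at least 525 bp wide (44.4%, exact 95% binomial interval 27.9% to 61.9%), against 51.8% of all regions. They were 12 of 20 in the type 2 window (60%, 36.1% to 80.9%) and 3 of 11 in Il22-Ifng (27.3%, 6.02% to 61.0%). In Il17a-Il17f they were 0 of 3 (0% to 70.8%) and in Il2 1 of 2 (50%, 1.26% to 98.7%). Each of these intervals contained the 51.8% of all regions. Per length the counts gave 40 such regions per Mb (20.7 to 69.9) in the type 2 window. The other 3 windows together had 5.00 per Mb (1.36 to 12.8), a split made after the values were seen, and the intervals did not overlap. The genome had 10.2 per Mb. Regions of at most 75 bp numbered 7 of 36 (19.4%, 8.19% to 36.0%), against 14.1% of all regions. Members with another region within 1000 bp numbered 12 of 36 (33.3%, 18.6% to 51.0%), against 26.8%, and all 12 were in the type 2 window (8) or in Il22-Ifng (4). For the shares over all 36 members, the value of the whole library lay inside the interval.

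**Figure D3:**
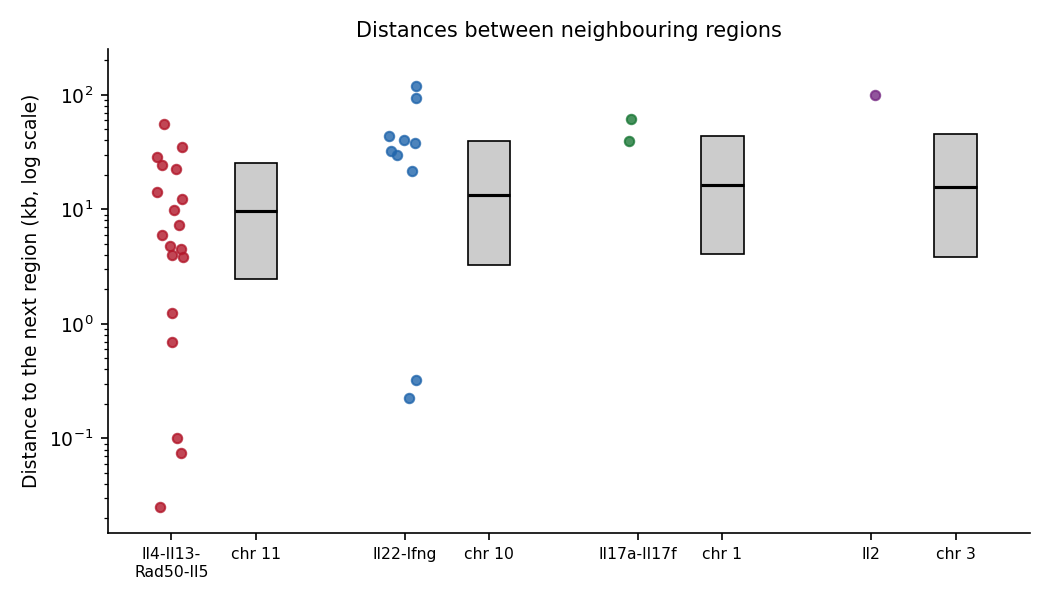
Distance from each CTCF region to the next one in the same window (points, kb, log scale), beside the distances on the chromosome of that window (box from the lower to the upper quartile, line at the median). The Il17a-Il17f and Il2 windows have only 2 and 1 distances, all above the median of their chromosomes.

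By median distance, neighbouring regions were closer in the type 2 window than on its chromosome and farther apart in Il22-Ifng. The Il17a-Il17f and Il2 windows had only 2 and 1 distances, too few to describe their spacing. The median distance between neighbours was 5.925 kb in the type 2 window, against 9.625 kb on chromosome 11 (quartiles 2.45 and 25.15 kb). The type 2 median rests in part on distances of 25, 75, 100 and 700 bp, and whether such close neighbours are separate sites was not tested. Such short distances were counted on the chromosome as well. In Il22-Ifng the median distance was 35.2 kb, against 13.2 kb on chromosome 10 (quartiles 3.25 and 39.5 kb). Both window medians thus lay inside the quartiles of their chromosomes. By number, Il22-Ifng was not sparser than its chromosome, with 24.4 against 19.9 regions per Mb. In Il17a-Il17f the 2 distances were 62.05 and 39.3 kb, against a median of 16.4 kb on chromosome 1, and the single distance of the Il2 window was 99.55 kb, against 15.65 kb on chromosome 3.

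The stretches around the windows were compared next, because chromosomes differ in CTCF density. The type 2 window had 66.7 regions per Mb (40.7 to 103), against 56.0 per Mb (42.3 to 72.7) in its 2 flanks of 500 kb, and the intervals overlapped widely. Both window and flanks were above chromosome 11 as a whole, which had 33.4 per Mb (32.4 to 34.5). A density above that of the chromosome was thus found on both sides of the window with Il4, Il13, Rad50 and Il5 as well as in it. For the other 3 windows the value was lower than in the flanks, with 24.4 against 34.0 per Mb for Il22-Ifng, 15.0 against 25 for Il17a-Il17f and 13.3 against 27.0 for Il2. In each of these the interval of the window contained the value of its flanks, so at these counts a difference could not be told from counting error. The flanks of Il17a-Il17f were unequal, with 8.00 per Mb on the low side, where Pkhd1 comes next in gene order, and 42.0 per Mb on the high side, where Mcm3 does. Chromosomes 10, 1 and 3 had 19.9, 16.5 and 14.8 per Mb, and each lay inside the interval of its window.

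**Figure D4:**
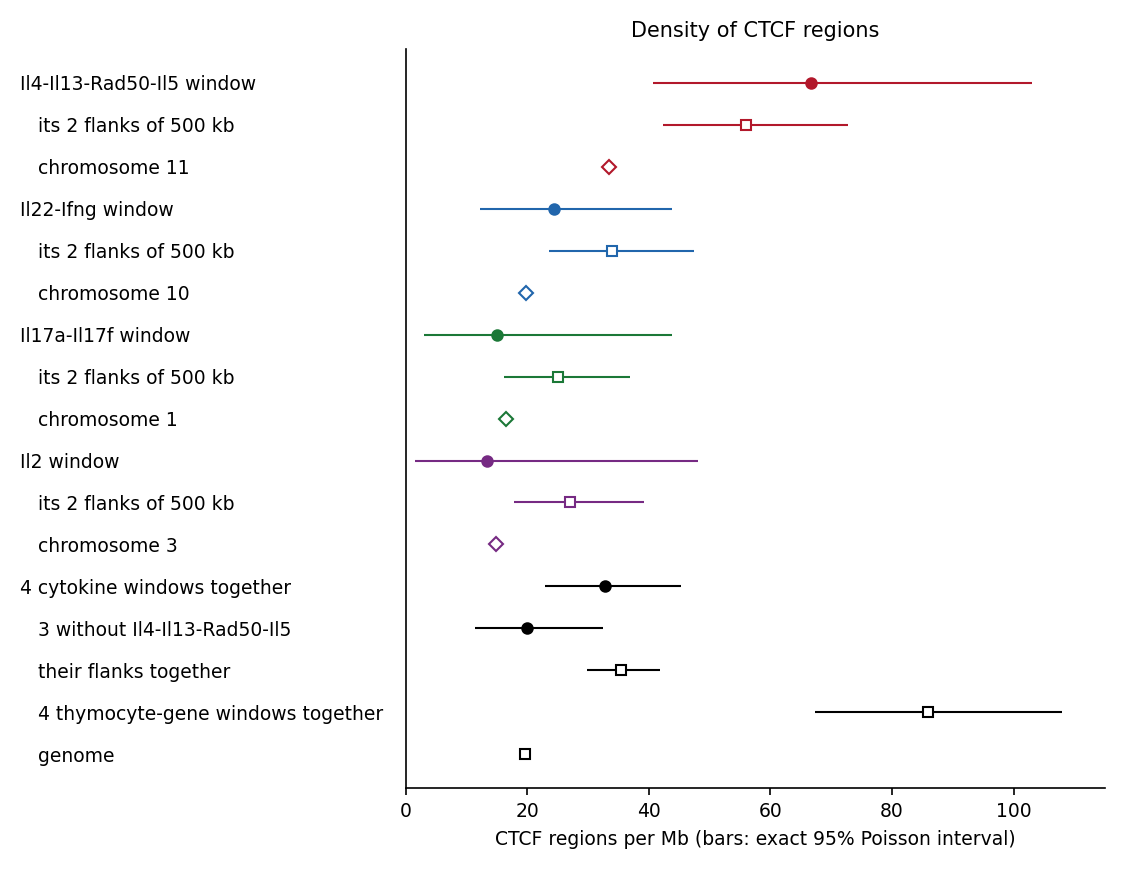
CTCF regions per Mb (x axis) with exact 95% Poisson intervals in each cytokine window (filled circles), its flanks (squares) and its chromosome (diamonds), and for the windows together beside their flanks, 4 windows of thymocyte genes and the genome (squares). The type 2 window (66.7) and its flanks (56.0) both lie above chromosome 11 (33.4), and the 4 cytokine windows together (32.7) lie below the thymocyte-gene windows (85.9).

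The windows were also set among all tiles of the same length, counted without overlap from the start of each chromosome. The 20 regions of the type 2 window exceeded 81.8% of the 406 tiles of chromosome 11, whose median was 9, and 94.0% of the 8781 tiles of the genome, whose median was 3. The 11 regions of Il22-Ifng exceeded 65.6% of tiles of chromosome 10 (median 5.5). The 3 of Il17a-Il17f exceeded 58.2% of tiles of chromosome 1 (median 1), and the 2 of Il2 exceeded 60.6% of tiles of chromosome 3 (median 1). Empty tiles were frequent, 39.8% on chromosome 1 at 200 kb and 48.1% on chromosome 3 at 150 kb. The Il17a-Il17f and Il2 windows thus held more regions than most tiles of their chromosomes. Their densities, 15.0 and 13.3 per Mb, were still below the 16.5 and 14.8 per Mb of chromosomes 1 and 3. In covered bases Il17a-Il17f exceeded 46.6% of the tiles of chromosome 1, lower than by number. Tiles include gene-poor stretches, and were not matched on genes.

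Genes that thymocytes use gave a further comparison. The 4 windows around Cd4, Cd8a-Cd8b1, Cd3e-Cd3d-Cd3g and Rag1-Rag2, which encode the co-receptors, signalling chains of the T cell receptor and the recombinase, add up to 0.85 Mb. The cytokine windows had 32.7 regions per Mb (22.9 to 45.3), against 85.9 per Mb (67.3 to 108) in these, and the intervals did not overlap. The type 2 window alone, with 66.7 per Mb (40.7 to 103), was just under the 70.0 to 125 per Mb of the 4 windows, and its interval reached into that range. Among regions of at least 525 bp it had 40 per Mb, the same as the 40 per Mb (27.7 to 55.9) of the thymocyte-gene windows. Median widths were 500 bp over the cytokine members and 475 bp over the thymocyte-gene windows. Gene number, chromosome and window length differ between the sets, the 4 windows were rounded by hand, and the mice lacked Rag1. What part each has in the difference was not tested.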

How the data were processed

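CTCF ChIP-seq was made from fixed thymocytes (1% formaldehyde, 10 minutes), 1 library with the antibody and 1 of input, per the labels' protocols. Per the submitters' processing notes, Bowtie was the aligner and mm9 the build. How peaks were called, at which threshold and whether against the input, is not given in the sources used here. In the file the authors deposited, 912174 windows of 25 bp are listed, each with a chromosome, start and end. It carries no other value such as a height or count, so depth and precision per region are unknown.

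Windows adjoining without a gap were joined into regions, of which 51660 were on the 19 autosomes and the X. Starts were read as counted from 0 and are printed counted from 1. A distance is the number of bases between neighbouring regions. Densities per chromosome run to its last listed position. Intervals are exact 95% Poisson or binomial (Clopper-Pearson) intervals that treat regions as independent and cover counting error only. With 1 library no test was made. Flanks were 500 kb on each side, and tiles had the length of the window. Joining, counting and gap steps were tested on simulated data. Members, genes named (the 9 genes, protein-coding neighbours up to 3 on each side and those of the comparison windows), windows and lists were chosen with earlier results of these data known. The motif planned for the regions was searched in promoters, since no mm9 genome was used. Alternatives were other joining distances, width bounds, window bounds, placing by overlap and starts counted from 1. Computations used SciPy 1.17.1 with NumPy 2.4.6 and pandas 2.3.3 under Python 3.11.15, and figures matplotlib 3.10.9.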

Additional observations from a re-analysis of the deposited data

How the results depend on the processing

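Of 126 values recomputed for 14 results under 9 alternatives, 103 stayed and 23 moved by the rule for their kind. Counts and longest gaps moved if they changed by over 1.5 times. The density of all 4 windows moved if it left its Poisson interval, the median width if it left a binomial interval of the median (325 to 600 bp), and a covered share if it left the exact 95% binomial interval over the 25-bp steps of its window, which is narrow. None of the 3 joining distances, placing by overlap or starts counted from 1 moved any of them. Keeping regions of at least 525 bp, a bound that removes regions by construction, left 12 regions in the type 2 window, 3 in Il22-Ifng, 0 in Il17a-Il17f and 1 in Il2, or 14.55 per Mb together. Covered shares were then 2.642% in the type 2 window, 0.4167% in Il22-Ifng and 0% in Il17a-Il17f, and longest gaps 92.17 kb, 213.9 kb and 200 kb in these windows. Without regions of at most 75 bp the longest gap was 90.6 kb in the type 2 window and 97.38 kb in Il17a-Il17f. Windows widened by 50 kb on both sides held 31 regions for type 2, 5 for Il17a-Il17f and 5 for Il2, with covered shares of 3.513% for type 2, 1.264% for Il22-Ifng, 0.5583% for Il17a-Il17f and 0.82% for Il2. Windows shrunk by 25 kb held 1 region for Il2, with covered shares of 0.175% for Il2 and 3.58% for type 2. In each alternative the type 2 window had the most regions and the largest covered share of the 4. No paired analysis was possible because the CTCF library had no replicate. Without heights, input or depth, a position that is not listed shows neither weak binding nor its absence.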

Other observations

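Windows around 5 other cytokine loci, with bounds rounded from general knowledge of mm9, held 29 CTCF regions in 0.75 Mb. That is 38.7 per Mb (exact 95% Poisson interval 25.9 to 55.5), against 19.6 per Mb in the genome. The Il3-Csf2 window, which holds genes of growth factors of blood cells, had 9 regions in 200 kb, and no region was listed over 97.8 kb of it (53969821 to 54067620). It lies in the high flank of the type 2 window on chromosome 11, so its regions are counted there too. The Il21 window adjoins the Il2 window on chromosome 3 and is likewise part of its flank. It had 4 regions in 100 kb, 3 of them at least 525 bp wide, against 2 in the 150 kb of the Il2 window, 1 of them at least 525 bp wide. Il9, a cytokine that acts on mast cells, had 9 regions in 200 kb, 7 of them at least 525 bp wide. Il10, an anti-inflammatory cytokine, had 4 regions in 150 kb with widths of 475 to 675 bp, and Il6, an inflammatory cytokine, had 3 in 100 kb. At least 525 bp wide were 3 of the regions of Il10, 1 of Il6 and 4 of Il3-Csf2. Of all regions of the library, 51.8% were at least that wide. The intervals of these windows were wide, from 6.19 to 87.7 per Mb for Il6, for example, and overlapped those of the 4 cytokine windows described above.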
